A study of Mus musculus with 31 samples.

Results

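The genes described here are the classical MHC class II chain genes H2-Aa, H2-Ab1 and H2-Eb1, the peptide-loading genes H2-DMa and H2-DMb1, the invariant chain gene Cd74, and Ciita, which encodes the class II transactivator. They were chosen by gene symbol, and the 7 members were all found among the 55401 genes of the quantified transcriptome. The samples were 12 RNA-seq libraries of sorted astrocytes from female C57Bl/6 mice aged 10 weeks, with SPF in the title of every library, prepared with SMART-seq2, a full-length method for small amounts of RNA. Mice received IL-1β at 100 ng/mL with TNF-α at 50 ng/mL, or phosphate-buffered saline (PBS) as the vehicle control, into the lateral ventricles of the brain. In the 1X groups there was 1 injection, on day 7. In the 2X groups there were 2, an earlier one and another on day 7, and cells were sorted 18 to 24 hours after the last. There were 3 libraries in each of the 4 groups, named 1X or 2X with PBS or cytokine. For the cytokine libraries the sample descriptions name TNF-α alone, whereas the treatment protocol names both cytokines. The labels do not say whether each library came from its own mouse, so the spread between libraries may be partly technical.

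MHC class II molecules are pairs of an alpha and a beta chain that carry peptides from the endosome to the cell surface, where CD4 T cells read them. Cd74, the invariant chain, blocks the peptide groove during transport, and the H2-DM heterodimer exchanges the last fragment of Cd74 for a peptide. Ciita binds no DNA itself: it is recruited by factors of the RFX, CREB and NF-Y families that sit on the X and Y boxes of class II promoters, and interferon gamma is its best known inducer. Dendritic cells, B cells and macrophages are the usual class II-positive cells, and in the brain class II is known from microglia and border macrophages, with astrocytes showing it mainly under inflammation.

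The H2 genes lie within 197 kb on chromosome 17 of GRCm38, from the start of H2-DMa at 34119541 to the end of H2-Eb1 at 34316674. H2-DMa, H2-DMb1 (34153072 to 34160230), H2-Ab1 (34257689 to 34269419) and H2-Eb1 (from 34305867) are on the plus strand, and H2-Aa (34282744 to 34287823) is on the minus strand. The promoter windows of H2-Aa and H2-Eb1 are shown because both hold the 2 elements through which the RFX and NF-Y factors meet Ciita. Each is the 150 bases before the annotated start in RefSeq's GRCm38.p6 annotation, written 5′ to 3′ on the strand of the gene. Capitals mark a match to the X box core CTNGNAAC and, downstream of it, the Y box core TGATTGG.
H2-Aa, chr17:34287824-34287973, minus strand: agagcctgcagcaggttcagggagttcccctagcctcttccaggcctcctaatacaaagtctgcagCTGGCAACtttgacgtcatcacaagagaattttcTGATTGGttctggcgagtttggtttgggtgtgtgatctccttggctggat
H2-Eb1, chr17:34305717-34305866, plus strand: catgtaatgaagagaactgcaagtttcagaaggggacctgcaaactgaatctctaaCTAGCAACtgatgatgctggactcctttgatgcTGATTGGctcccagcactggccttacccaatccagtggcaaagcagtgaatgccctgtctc

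The X box core began 84 bases before the start of H2-Aa and 94 bases before that of H2-Eb1, and the Y box core began 50 and 61 bases before it. These distances are to the annotated start, which for H2-Eb1 is not that of the transcript with the most counts. The gap between the cores was 26 bases in H2-Aa and 25 in H2-Eb1. H2-DMb1 held the same arrangement at 97 and 63 bases before its start, with a gap of 26 bases. So did H2-Ob, a class II gene outside the members, at 90 and 59 bases with a gap of 23. H2-Oa, H2-DMb2 and H2-Eb2 did not hold it. Neither of the 2 windows listed for H2-DMa held either core on the strand of the gene. H2-Ab1, Cd74 and Ciita have no entry in the table of promoters. Among 32851 promoter windows searched over the 250 bases before the start on both strands, CTNGNAAC was found in 10.9% and TGATTGG in 7.23%, and both in this order with a gap of 10 to 45 bases in 26 windows, or 0.0791%. The letters and the gap were chosen after these sequences had been seen, and a match is a description of the sequence only.

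Levels are given in CPM, counts scaled to equal library size. The libraries held between 1878418 and 5521679 estimated counts. On these totals 3 counts, taken here as the limit of detection, correspond to 0.543 to 1.60 CPM. All other CPM are on TMM-scaled library sizes, with factors of 0.932 to 1.04, so this limit is approximate for them. The labelled cell type was present: the 10 astrocyte markers summed to 6512 CPM or more in every library, led by Aldoc and Slc1a3. Markers of other brain cells were present as well. The 8 ependymal and choroid plexus markers, mostly Ttr, summed to 4241 to 28410 CPM. That sum lay above the astrocyte sum in 1X PBS replicates 2 and 3 and 1X cytokine replicates 1 and 3. The 7 oligodendrocyte markers summed to 2906 to 6596 CPM. A pair of libraries stood apart from their groups. The library labelled 1X PBS replicate 1 had a summed astrocyte level of 25070 CPM against 6983 and 6512 CPM in the other 1X PBS libraries, and a summed level of 9 pan-leukocyte markers of 104.6 CPM against 1588 and 1648 CPM. The library labelled 1X cytokine replicate 1 had 9707 CPM of astrocyte and 595.3 CPM of pan-leukocyte markers, against 18280 and 20800 CPM and 133.6 and 166.5 CPM in the other 1X cytokine libraries. On these sums the first lay closer to 1X cytokine replicates 2 and 3 than to its own group, and the second lay between those and 1X PBS replicates 2 and 3. Whether the labels of these libraries were exchanged was not tested, and every mean of a 1X group and every fit to all 12 libraries takes the labels as given. Results that involve the 1X groups are therefore given with and without these libraries. These libraries were picked out on values of the same data, and their class II levels stood apart in the same direction. The p-values of fits without them are therefore not independent support for a difference.

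The class II chains were most abundant in 2 of the 3 1X PBS libraries and lowest on average after 2 cytokine injections. H2-Ab1, the beta chain of the I-A molecule, was at 20.2, 217 and 187 CPM in 1X PBS, 74.5, 19.6 and 27.5 CPM in 1X cytokine, 42.8, 66.4 and 65.4 CPM in 2X PBS and 20.7, 29.4 and 9.90 CPM in 2X cytokine. H2-Aa, its alpha chain partner, was at 6.85, 92.8 and 85.8 CPM in 1X PBS, 32.7, 13.8 and 17 CPM in 1X cytokine, 19.5, 36.3 and 38.8 CPM in 2X PBS and 8.21, 14.3 and 5.70 CPM in 2X cytokine. For both chains the 1X groups overlapped, because 1X PBS replicate 1 lay below every 1X cytokine library for H2-Aa and below 2 of them for H2-Ab1. All 2X PBS libraries lay above all 2X cytokine libraries, as for 14.1% of all tested genes.

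H2-Eb1, the beta chain of the I-E molecule, was at 6.47, 63.2 and 62.9 CPM in 1X PBS, 21.1, 6.91 and 12.1 CPM in 1X cytokine, 19.1, 24.6 and 26.1 CPM in 2X PBS and 6.07, 8.67 and 1.5 CPM in 2X cytokine. Its range across libraries, 42.1-fold, was the widest of the 7 members, and its lowest value rested on 5 counts. The I-E alpha chain gene H2-Ea was at 0 in all 12 libraries, with an upper limit of 3 counts in each. C57Bl/6 mice are known to carry a defective H2-Ea promoter and to lack surface I-E.

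Cd74 lies on chromosome 18 from 60803848 to 60812652, plus strand. It was at 13.3, 150 and 132 CPM in 1X PBS, 58.5, 19.6 and 23.6 CPM in 1X cytokine, 47.4, 47.5 and 52.4 CPM in 2X PBS and 15.7, 17.7 and 9.0 CPM in 2X cytokine. The 2X PBS libraries were closely grouped at 49.1 ± 2.85 CPM (SD, n = 3) and the 2X cytokine libraries at 14.1 ± 4.56 CPM (SD, n = 3), with no overlap. All 3 2X cytokine libraries also lay below all 3 1X cytokine libraries. Of all tested genes, 14.1% were lower with no overlap in 2X cytokine against 2X PBS and 6.76% in 2X cytokine against 1X cytokine.

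**Figure D1:**
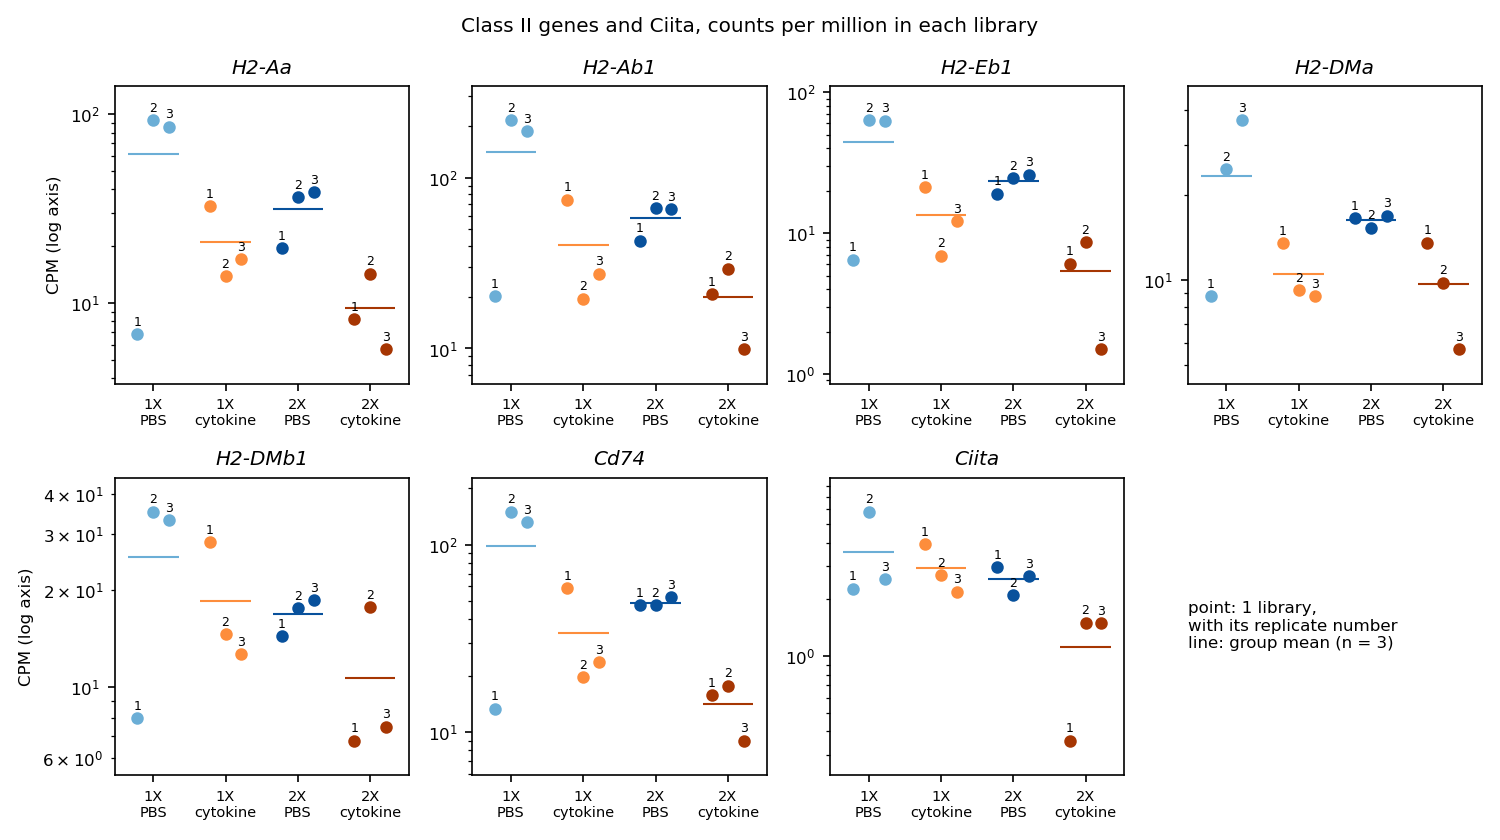
CPM (log axis, its range differing between panels) of the 7 genes in the 12 libraries, by group. Each point is 1 library with its replicate number and each line is the mean of 3 libraries. 1X PBS replicate 1 lies apart from replicates 2 and 3 in every panel but that of Ciita. For 6 of the 7 genes, all but H2-DMb1, the 2X cytokine points lie below the 2X PBS points, as for 14.1% of all tested genes.

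The H2-DM genes, whose product edits the peptide repertoire, varied less. H2-DMa was at 8.75, 24.7 and 36.6 CPM in 1X PBS, 13.5, 9.22 and 8.79 CPM in 1X cytokine, 16.5, 15.3 and 16.9 CPM in 2X PBS and 13.6, 9.80 and 5.70 CPM in 2X cytokine. H2-DMb1 was at 7.99, 35.2 and 33.2 CPM in 1X PBS, 28.3, 14.6 and 12.6 CPM in 1X cytokine, 14.4, 17.6 and 18.6 CPM in 2X PBS and 6.78, 17.7 and 7.50 CPM in 2X cytokine. H2-DMb1 was the one tested member whose 2X groups overlapped, through 2X cytokine replicate 2. Of all tested genes 14.1% were lower in 2X cytokine with no overlap. The range across libraries was 6.43-fold for H2-DMa and 5.19-fold for H2-DMb1, against 16.3-fold for H2-Aa, 21.9-fold for H2-Ab1 and 16.6-fold for Cd74.

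Ciita, on chromosome 16 from 10480059 to 10528418, plus strand, was close to the limit of detection. It was at 2.28, 5.82 and 2.55 CPM in 1X PBS, 3.93, 2.69 and 2.20 CPM in 1X cytokine, 2.96, 2.11 and 2.67 CPM in 2X PBS and 0.357, 1.51 and 1.5 CPM in 2X cytokine. These values rested on 1 to 21 estimated counts a library, and Ciita did not pass the filter on low counts. The mean of log2(CPM + 0.5) was lower by 1.02 in 2X cytokine than in 2X PBS and by 1.16 than in 1X cytokine. Neither comparison had overlap, beside 14.1% and 6.76% of all tested genes lower in that way. Without 2X cytokine replicate 1, which rested on 1 count, these differences were -0.61 and -0.75. The exact permutation p, counting both tails, was 0.1 for each, the smallest that 3 against 3 libraries allow, and 0.2 after Benjamini-Hochberg adjustment over the 4 group comparisons. For 1X cytokine against 1X PBS the exact permutation p was 0.8, and for 2X PBS against 1X PBS it was 0.7.

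Levels of different genes were compared in TPM, the deposited unit scaled for transcript length. Averaged over the 12 libraries, H2-Ab1 was highest at 84.6 TPM, followed by Cd74 at 60.5, H2-Aa at 43.8 and H2-Eb1 at 34.1 TPM. H2-DMb1 and H2-DMa followed at 22.5 TPM each, and Ciita was last at 0.823 TPM. H2-Ab1 was the highest and Ciita the lowest in 12 of 12 libraries, Cd74 was second in 11 and H2-Aa lay above H2-Eb1 in 10, while H2-DMa lay above H2-DMb1 in 5. The H2-Aa to H2-Ab1 ratio of TPM stayed between 0.372 and 0.773, with a median of 0.511. By contrast the H2-DMa to H2-Ab1 ratio ran from 0.122 in 1X PBS replicate 2 to 0.792 in 2X cytokine replicate 1, and the H2-DMb1 to H2-Ab1 ratio from 0.148 in 1X PBS replicate 3 to 0.652 in 1X cytokine replicate 2. Both ratios were at 0.217 or less in 1X PBS replicates 2 and 3, the libraries with the most class II RNA.

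Across the 12 libraries the levels of H2-Aa, H2-Ab1, H2-Eb1 and Cd74 followed each other, with Pearson's r of log2(CPM + 0.5) between 0.961 and 0.983 over their 6 pairs. The 9 pairs that include H2-DMa or H2-DMb1 had r between 0.739 and 0.933, and Ciita had r = 0.646 with the mean of the 4 genes. The libraries fall into groups and include those that stand apart, so these values describe the 12 libraries and carry no p-value.

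After 1 injection, class II RNA was lower on average in the libraries labelled cytokine, but no member passed edgeR's adjusted test over all 12 libraries. Other methods or filters on the same libraries called some members in this and other comparisons, as given at the end. The groups overlapped for all 7 members. The members summed to 65.8, 588.5 and 539.7 CPM in 1X PBS and 232.5, 86.4 and 103.8 CPM in 1X cytokine. With edgeR's quasi-likelihood test over all 12 libraries, 0 of the 6 tested members and 0 of 14490 genes (0%) passed an adjusted p of 0.05, with 782 genes at an unadjusted p under 0.05 and 2 genes called by DESeq2. Of the 6 tested members 5, all but H2-DMb1, had an unadjusted p under 0.05. The log2 fold changes ran from -1.77 (SE 0.704) for H2-Ab1 to -0.44 (SE 0.493) for H2-DMb1, with a median of -1.51 beside -0.01 over all tested genes, and adjusted p from 0.866 to 0.904. Without the 1X libraries numbered 1, which were picked out after their values had been seen, 2 libraries were left against 2 in this comparison. All 6 tested members fell in that fit, beside 11.5% of all genes called lower. H2-Ab1 then fell by 3.11 (SE 0.322, edgeR adjusted p = 1.08e-05), Cd74 by 2.69 (SE 0.205, edgeR adjusted p = 7.71e-07) and H2-DMb1 by 1.29 (SE 0.323, edgeR adjusted p = 0.0104) on the log2 scale. Leaving out 1X PBS replicate 1 alone gave 5 of 7 members lower, all but H2-DMb1 and Ciita, beside 3.26% of all genes.

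After 2 injections, 6 of the 7 members, Ciita included, had every 2X cytokine library below every 2X PBS library. Of the 6 tested members 5 showed this, beside 14.1% of all tested genes. In the fit over all 12 libraries 0 of 6 tested members passed, beside 5 of 14490 genes (0.0345%), with 1403 genes at an unadjusted p under 0.05, 3 of the 6 members among them, and 114 called by DESeq2. The log2 fold changes were -2.15 (SE 0.766, edgeR adjusted p = 0.434) for H2-Eb1, -1.81 (SE 0.699) for Cd74, -1.78 (SE 0.741) for H2-Aa and -1.56 (SE 0.741) for H2-Ab1, and -0.75 and -0.69 for H2-DMa and H2-DMb1. That fit takes its spread partly from the 1X libraries. With the 6 2X libraries alone, the fold changes were nearly the same and the errors smaller: Cd74 fell by 1.81 (SE 0.194, edgeR adjusted p = 1.1e-04), H2-Eb1 by 2.16 (SE 0.364, edgeR adjusted p = 0.00294), H2-Aa by 1.80 (SE 0.312, edgeR adjusted p = 0.0036) and H2-Ab1 by 1.59 (SE 0.278, edgeR adjusted p = 0.0038). H2-DMa (edgeR adjusted p = 0.127) and H2-DMb1 (edgeR adjusted p = 0.227) did not pass. These 4 of 6 members stand beside 5.31% of all genes called lower. The same count, 4 of 6 beside 5.16%, was found without the 1X libraries numbered 1, and 1 of 7 (Cd74) beside 0.735% without 1X PBS replicate 1 alone. The 5 genes called over all 12 libraries, all lower, were Timp1, Tspan4, Inmt, Tmem176a and Psmb10, a subunit of the immunoproteasome that cuts peptides for class I.

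**Figure D2:**
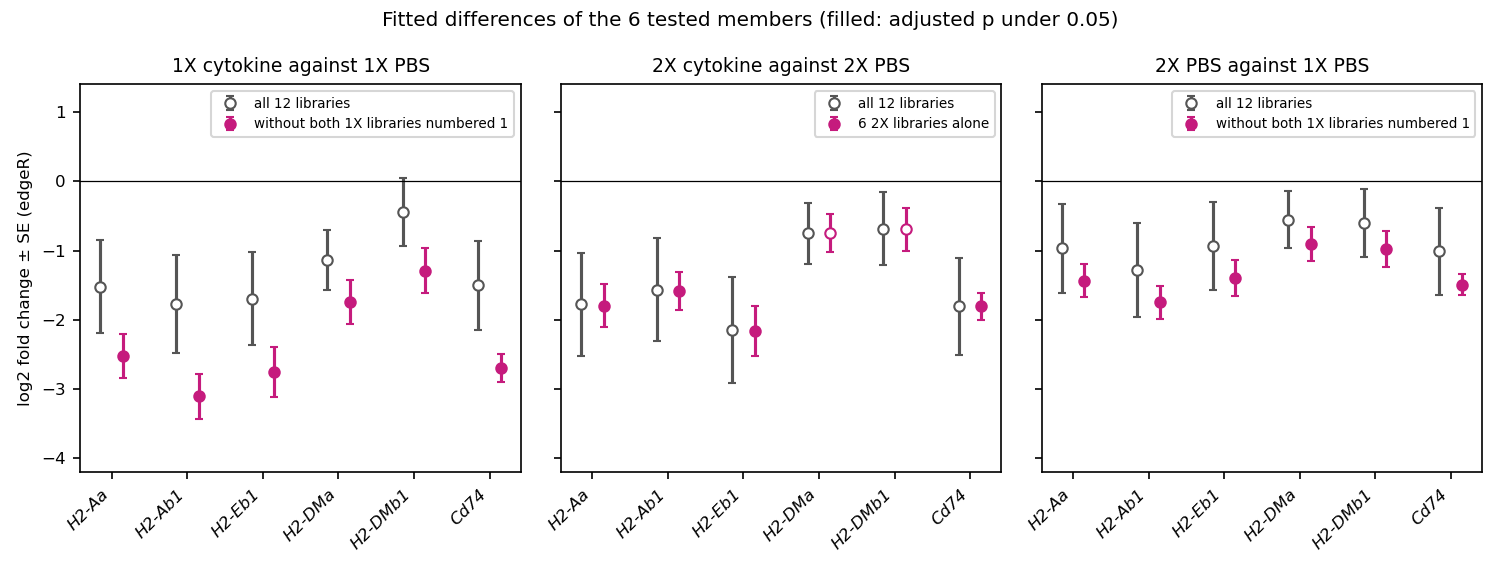
Log2 fold change (edgeR), with a standard error derived from the F statistic of the test, of the 6 tested members in 3 comparisons. Values are from all 12 libraries (grey) and from fewer (pink: without the 1X libraries numbered 1, or the 6 2X libraries alone). Filled points have an adjusted p under 0.05; no grey point is filled, and in the middle panel all pink points but those of H2-DMa and H2-DMb1 are.

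A second injection was also set against a single one of the same kind. In 2X cytokine against 1X cytokine, 0 of 6 members passed beside 4 of 14490 genes (0.0276%), with 1015 genes at an unadjusted p under 0.05 and 8 called by DESeq2. Cd74 had a log2 fold change of -1.32 (SE 0.709, edgeR adjusted p = 0.761) and was the one tested member of 6 with no overlap between the groups, beside 6.76% of all tested genes lower in that way. Of the 4 genes called, Timp1 fell, and Gm37375, Gm37385 and Gm43590, whose values were identical and whose reads could not be separated, rose. H2-DMa had -0.16 (SE 0.463), and without the 1X libraries numbered 1 it had 0.09 and Cd74 had -0.61 (SE 0.242, edgeR adjusted p = 0.458). In 2X PBS against 1X PBS, 0 of 6 members passed beside 0% of all genes, with 914 genes at an unadjusted p under 0.05 and 17 called by DESeq2. H2-Ab1 had the largest difference of the members there, -1.28 (SE 0.685, edgeR adjusted p = 0.783). Without the 1X libraries numbered 1, all 6 tested members fell beside 8.47% of all genes, H2-Ab1 by 1.75 (SE 0.238, edgeR adjusted p = 1.82e-04) and Cd74 by 1.49 (SE 0.153, edgeR adjusted p = 1.87e-05). Without 1X PBS replicate 1 alone, 4 of 7 members fell, beside 2.42% of all genes.

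Whether the cytokine response differed between 2 and 1 injections was tested as an interaction. Over all 12 libraries 0 of 6 members passed, beside 0% of all genes, with 754 genes at an unadjusted p under 0.05 and 13 called by DESeq2. The members' differences, 2X response less 1X response, ran from -0.45 (SE 1.02) for H2-Eb1 to 0.39 (SE 0.621) for H2-DMa. Without the 1X libraries numbered 1, H2-Ab1 had a difference of 1.52 (SE 0.434, edgeR adjusted p = 0.0442), a smaller decrease after 2 injections, and was the one member of 6 called, beside 3.21% of all genes called higher. Cd74 had 0.89 (SE 0.287, edgeR adjusted p = 0.0733) in that fit.

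Markers of blood-derived and other myeloid cells moved with the class II genes. All 9 pan-leukocyte markers, such as Tyrobp, a signalling adaptor of myeloid cells, and Lcp1, an actin bundler of leukocytes, were lower in 2X cytokine than in 2X PBS. Their sum ranged from 573.8 to 612.1 CPM in 2X PBS and from 69.6 to 161.6 CPM in 2X cytokine. After a single injection it was 104.6 to 1648 CPM with PBS and 133.6 to 595.3 CPM with cytokine. With the 6 2X libraries alone all 9 fell, where 5.31% of all genes were called lower and 2.43% higher, with a median log2 fold change of -2.94, beside -1.69 for the 6 tested members and 0.01 for all genes. Tyrobp was at 78.7, 85.7 and 78.2 CPM in 2X PBS and at 13.6, 20.7 and 8.70 CPM in 2X cytokine.

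Sums of monocyte and of neutrophil markers took the same course. The 10 monocyte and macrophage markers summed to 585.1 to 602.8 CPM in 2X PBS, 114.9 to 223.1 CPM in 2X cytokine, 171.2 to 2115 CPM in 1X PBS and 157.1 to 675.2 CPM in 1X cytokine. Lyz2, the lysozyme of myeloid cells, was at 297, 312 and 308 CPM in 2X PBS and 53.9, 25.2 and 6.90 CPM in 2X cytokine. The 10 neutrophil markers, led by S100a8 and S100a9, summed to 287.5 to 392.8 CPM in 2X PBS, 13.8 to 148.5 CPM in 2X cytokine, 30.8 to 1389 CPM in 1X PBS and 20.7 to 552 CPM in 1X cytokine. That sum was carried by S100a8, S100a9 and Csf3r: of 8 tested neutrophil markers 6 were lower and 2 higher in 2X cytokine than in 2X PBS over all 12 libraries. The granule genes Ngp and Mmp8, named after their values were seen, were the higher ones, with means of 2.46 and 0.608 CPM in 2X PBS and 15.0 and 2.36 CPM in 2X cytokine, where replicate 1 was the highest. The 8 border-associated macrophage markers summed to 53.8 to 66.0 CPM in 2X PBS and 17.7 to 34.7 CPM in 2X cytokine.

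Microglial markers were lower in part. The 15 markers summed to 848.8 to 1191 CPM in 2X PBS, 477.3 to 907.2 CPM in 2X cytokine, 720.8 to 1589 CPM in 1X PBS and 622.1 to 1117 CPM in 1X cytokine, and with the 6 2X libraries alone 12 of 15 were lower, with a median log2 fold change of -0.59, and 5 of these were called, beside 5.31% of all genes. Olfml3 was at 83.0, 98.6 and 93.3 CPM in 2X PBS and 56.8, 51.6 and 37.8 CPM in 2X cytokine, with no overlap, beside 14.1% of all tested genes lower in that way. Csf1r, the receptor on which microglia depend, was at 175, 233 and 224 CPM in 2X PBS and 166, 195 and 90.6 CPM in 2X cytokine, which overlap. The 3 higher markers, named after their values were seen, were P2ry12, Siglech and Gpr34, and none was called. P2ry12 was at 14.4, 23.9 and 20.4 CPM in 2X PBS and 28.6, 39.2 and 23.4 CPM in 2X cytokine. Astrocyte markers summed to 16630 to 19010 CPM in 2X PBS and 18370 to 22000 CPM in 2X cytokine. With the 6 2X libraries alone 6 of the 10 were higher and 4 lower. Of these 2 were called higher, Aldoc and S100b, beside 2.43% of all genes, and 1 was called lower, beside 5.31%: Gfap, an intermediate filament of reactive astrocytes, fell by 3.09 (SE 0.118, edgeR adjusted p = 2.77e-08) on the log2 scale. The 7 oligodendrocyte markers summed to 2906 to 4199 CPM in 2X PBS and 5491 to 6596 CPM in 2X cytokine. With the 6 2X libraries alone 6 were higher and 1 lower, and 5 were called higher, beside 2.43% of all genes. The 8 ependymal and choroid plexus markers summed to 13750 to 15740 CPM in 2X PBS and 4241 to 14600 CPM in 2X cytokine. In the same fit 4 of these were lower and 4 higher.

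Several defining markers of lymphocytes were at or near the limit of detection, and others were not. Among the 8 B cell markers, Blk was at 0 in all 12 libraries and Pax5 in 11, and among the 8 T cell markers Cd3e and Cd3g were at 0 in 8. Ighm, an immunoglobulin heavy chain gene, was detected in every library at a mean of 8.56 CPM, with 14.4 and 19.2 CPM in 1X PBS replicates 2 and 3. Its 2X cytokine libraries lay below its 2X PBS libraries with no overlap, beside 14.1% of all tested genes. The T cell genes Trac, Cd3d and Lck had means of 4.23, 2.52 and 2.14 CPM. The 12 dendritic cell markers, which include the broadly expressed Fscn1, summed to 92.9 to 138.2 CPM over all libraries and 4 of them passed the filter on low counts. Fscn1 made up most of that sum, with a mean of 77.2 CPM. Wdfy4, needed for cross-presentation, was at 1.14, 14.1 and 13.5 CPM in 1X PBS, where replicate 1 was also the lowest for the class II chains, and its 2X cytokine libraries all lay below its 2X PBS libraries, beside the same 14.1%. With the 6 2X libraries alone 3 of 4 tested dendritic cell markers were lower and 1 higher, and none was called. Over all 12 libraries none was called in any comparison. Without the 1X libraries numbered 1, 6 of 7 tested dendritic cell markers were lower in 1X cytokine than in 1X PBS and 4 were called, beside 11.5% of all genes, with a median log2 fold change of -1.15. In RNA from sorted cells, fewer class II-positive cells and less class II RNA per cell cannot be told apart. The part of the leukocyte markers in the class II differences was not tested.

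**Figure D3:**
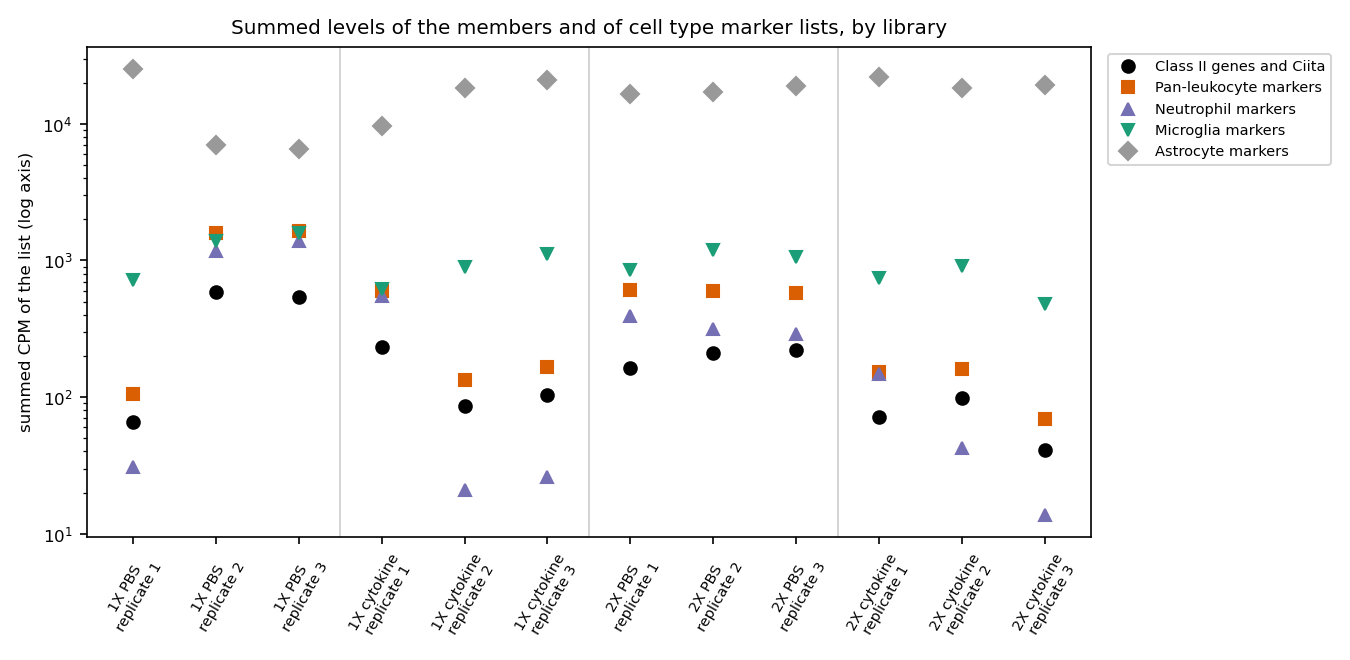
Summed CPM (log axis) of the 7 members and of 4 cell type marker lists in each of the 12 libraries. The members, the pan-leukocyte and the neutrophil markers are high in 1X PBS replicates 2 and 3, intermediate in 1X cytokine replicate 1 and 2X PBS and low in the remaining libraries, while the astrocyte sum is lowest, at 6512 and 6983 CPM, in 1X PBS replicates 3 and 2.

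Likeness to the class II chains was measured across libraries. Of 12036 protein-coding genes with a mean of at least 5 CPM, the 8 with the highest Pearson's r with the mean log2(CPM + 0.5) of H2-Aa, H2-Ab1, H2-Eb1 and Cd74 over the 12 libraries were Bin2 (0.987), Unc93b1 (0.984), Mpeg1 (0.983), Nckap1l (0.982), Pld4 and Vav1 (0.981 each), and Tyrobp and Fes (0.980 each). Unc93b1 carries nucleic acid-sensing Toll-like receptors to the endosome, Mpeg1 is a pore-forming protein of macrophages, and Vav1 is a signalling protein of blood cells. Bin2 was at 19.5, 20.6 and 17.2 CPM in 2X PBS and 5.00, 6.78 and 2.10 CPM in 2X cytokine. All these values share the same libraries and depths.

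The RNA of proteins that bind class II promoters differed in direction between genes. None of the 9 genes of this list, among them Rfx5, Rfxap and Rfxank of the RFX complex and Nfya, Nfyb and Nfyc of NF-Y, passed in any of the 5 comparisons, with all 12 libraries or without the 1X libraries numbered 1. With all 12 libraries no tested class II member passed either. The 9 genes had a median log2 fold change of 0.12 in 2X cytokine against 2X PBS, with 4 lower and 5 higher. Their sum was 227.7 to 268.5 CPM over all 12 libraries. Rfxank was at 27.9, 37.0 and 37.3 CPM in 2X PBS and 50.7, 39.9 and 49.5 CPM in 2X cytokine.

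Of the interferon gamma route to Ciita, the ligand gene Ifng was at 0 in 10 of 12 libraries and under the limit of detection in the others. With the 6 2X libraries alone, 6 of 8 tested genes were lower and 2 higher, and 1 was called in each direction, beside 5.31% of all genes lower and 2.43% higher: the receptor gene Ifngr1 fell by 0.43 (SE 0.096, edgeR adjusted p = 0.0165) and Irf1 rose by 0.89 (SE 0.138, edgeR adjusted p = 0.00175) on the log2 scale. Irf1, a transcription factor of the interferon response, was at 88.0, 99.6 and 114 CPM in 2X PBS and 193, 215 and 148 CPM in 2X cytokine, opposite in direction to Ciita and the class II genes. Over all 12 libraries none of the 8 passed in any comparison.

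The lists for class II processing and for costimulation were called in part. With the 6 2X libraries alone, 8 of 11 processing and turnover genes were lower and 3 higher. Of these 6 were called lower, beside 5.31% of all genes, and none was called higher. Ifi30, a thiol reductase of the endosome, fell by 1.62 (SE 0.247, edgeR adjusted p = 0.00155), Ctsb by 0.64, Lgmn by 0.58 and Ctsl by 0.45 on the log2 scale. Ifi30 was at 18.2, 27.8 and 25.2 CPM in 2X PBS and 7.50, 10.6 and 5.70 CPM in 2X cytokine. Of 5 tested costimulation genes 2 fell, beside the same 5.31%: Cd80 by 1.67 (SE 0.439, edgeR adjusted p = 0.037) and Icam1, an adhesion molecule, by 0.94 (SE 0.178, edgeR adjusted p = 0.00652), while Cd86 had -0.96 (SE 0.443, edgeR adjusted p = 0.245).

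MHC class I presentation genes were lower as well. With the 6 2X libraries alone 9 of 9 tested genes fell, beside 5.31% of all genes, with a median log2 fold change of -1.05, among them Psmb8 by 1.89 (SE 0.18, edgeR adjusted p = 4.08e-05), Tap1 by 0.78 and Erap1 by 0.73. Erap1, which trims peptides for class I, had an adjusted p of 0.0543 by edgeR over all 12 libraries and did not pass. The other class II genes, H2-Oa, H2-Ob, H2-DMb2 and H2-Eb2, were each at 2.78 CPM or less in every library, and none passed the filter on low counts.

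The deposited values are per transcript, so Cd74 could be split into its forms. Cd74-202, which has an added coding exon of 192 bases in GENCODE (837 against 645 coding bases in Cd74-201), took 29.5% of all Cd74 counts and Cd74-201 took 69.2%. Its share of the 2 was 28.9%, 24.9% and 31.9% in the 1X PBS libraries and 36.4%, 24.6% and 45.3% in those of 1X cytokine. With 2 injections it was 59.9%, 25.7% and 28.5% for PBS and 0%, 28.7% and 0% for cytokine. The zeros, each allowing up to 3 counts, stand beside 44.0 and 28.9 estimated counts of Cd74-201, and the shares were not tested because kallisto divides reads between transcripts by estimate.

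**Figure D4:**
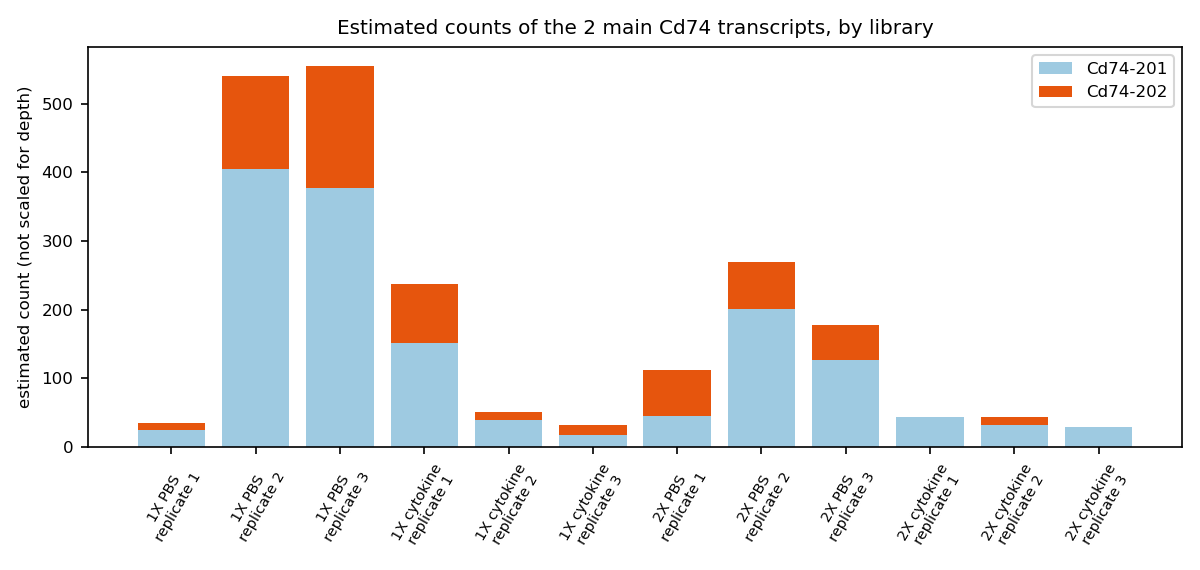
Estimated counts of the transcripts Cd74-201 and Cd74-202 in each of the 12 libraries, stacked and not scaled for depth. Cd74-202 reached 177 counts in 1X PBS replicate 3 and was 0 in 2X cytokine replicates 1 and 3.

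Transcript models matter for the reading of the other members. H2-Eb1-205, annotated as a target of nonsense-mediated decay, took 62.9% of all H2-Eb1 counts. It starts at 34305926, downstream of the printed H2-Eb1 window. That window ends just before the start of H2-Eb1-203 at 34305867, and H2-Eb1-203 took 12.4% of the counts. H2-DMa-205, which starts at 34135628 and thus downstream of both listed H2-DMa promoter windows, took 87.8% of the H2-DMa counts. H2-Ab1-201, H2-Aa-201 and H2-DMb1-201 took 98.0%, 98.8% and 92.4% of their genes. Of the Ciita counts 41.1% fell to the 3 transcripts with the most upstream start, 53.4% to 2 that start near 10488279 and 5.52% to 3 that start near 10489783, from few counts in all. H2-DMa overlaps Brd2 on the opposite strand over 3094 bases, H2-Eb1 overlaps the antisense gene Gm20513 over 2204 bases and Ciita overlaps Dexi on the opposite strand, and SMART-seq2 does not mark the strand.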

How the data were processed

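RNA of sorted astrocytes was sequenced in 12 libraries, and the 19 ATAC samples are not used here. The authors quantified reads against the GRCm38 transcriptome with kallisto 0.46.1, per the labels' protocols, and deposited estimated counts and TPM per transcript, with lengths. Estimated counts were summed per gene, rounded and scaled by TMM (edgeR 4.0.16, R 4.3.3). CPM are on TMM-scaled library sizes, and the deposited TPM, summed per gene, served only to compare levels between genes. After edgeR's filter on low counts 14490 genes were tested with the quasi-likelihood test on all 4 groups, with Benjamini-Hochberg adjustment over all of them and a threshold of 0.05. Calls are from this test unless another method is named. It returns no standard error. Each SE given with an edgeR fit is the size of the log2 fold change divided by the square root of the F statistic, and is approximate. The method was also run on simulated counts. These had the same spread for every gene and no libraries that stand apart, so that run does not show how the method behaves on these data. Alternatives were DESeq2 1.42.0, limma 3.58.1 with voom quality weights, other scaling and filters, a replicate block, and fewer libraries. Ciita, not tested by edgeR, was compared by exact permutation. Positions come from GENCODE M21, whose versioned identifiers match 98.1% of the genes, and promoter sequences from RefSeq's GRCm38.p6 annotation, in which 4 of the 7 members have an entry. The members and the 20 lists were chosen with earlier results of these data known. Named genes were all members, from each function list the 4 genes at most that had the lowest adjusted p, up to 3 genes of each cell type list by mean CPM and 2 by adjusted p, markers at or under 3 counts in every library, 8 genes most like the class II chains, and all genes called in a comparison with at most 5; a few list members outside this rule (H2-Oa, H2-Ob, H2-DMb2, Rfx5, Rfxap, Nfya, Nfyb) are named for identity.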

Additional observations from a re-analysis of the deposited data

How the results depend on the processing

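The number of members called depended on the method, the filter and the libraries in the fit. Counts follow the order of the comparisons. First come cytokine against PBS after 1 injection and after 2, then 2 against 1 injection of cytokine and of PBS. Last comes the difference of responses. In the main edgeR fit to all 12 libraries 0 members were called in each, beside 0, 5, 4, 0 and 0 of 14490 genes. Without the low count filter the counts were 4, 4, 0, 0 and 0, beside 251, 459, 193, 97 and 70 of 33574 genes. With voom quality weights they were 5, 1, 0, 6 and 0, beside 1778, 454, 1, 2695 and 199 of 14490 genes. With the 6 libraries of each comparison alone they were 0, 4, 0 and 0, beside 0 of 13851, 1065 of 13765, 0 of 13368 and 0 of 14177 genes. Without both 1X libraries numbered 1 they were 6, 4, 0, 6 and 1, beside 3489, 1042, 3, 2760 and 1387 of 14848 genes. Leaving out 1 library at a time gave 0 to 5 members in the first comparison, 0 to 1 in the second and 0 to 4 in the fourth. The higher value each time was without 1X PBS replicate 1, beside 1141, 125 and 1116 of 15106 genes. Counts over all genes with DESeq2 were 2, 114, 8, 17 and 13 of 14490. For 2X cytokine against 1X cytokine a mean of at least 5 CPM gave 0 calls and the 6 libraries alone gave 0. Leaving out 1 library gave 0 to 1141, 0 to 125, 0 to 3, 0 to 1116 and 0 to 17 calls over all genes, of which 14588 to 15106 were tested.

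The replicate block gave 2 calls in 2X cytokine against 2X PBS and 0 in 2X cytokine against 1X cytokine, and no member. Same-numbered libraries had correlations of their deviations from -0.619 to 0.162, and 2 of 12 libraries matched best with their own number. The value of -0.619 was between 1X PBS replicate 1 and 1X cytokine replicate 1, which stand apart from their groups. These correlations showed no pairing by number, but they cannot settle whether the samples were paired.

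Directions of members changed sign in the comparison of 2X with 1X cytokine for H2-DMa (main -0.16; 0.09 without both 1X libraries numbered 1), and leaving out 1 library gave -0.47 to 0.13. In the difference of responses, where every member's value in the main edgeR fit was smaller than its error, signs changed as follows. With voom H2-Aa was 0.32, H2-Eb1 0.03, H2-DMb1 0.19 and Cd74 0.45, and without both 1X libraries numbered 1 they were 0.72, 0.59, 0.60 and 0.89. Leaving out 1 library gave -0.69 to 0.24 for H2-Aa, -0.22 to 1.03 for H2-Ab1, -0.98 to 0.11 for H2-Eb1, -0.09 to 0.73 for H2-DMa, -0.81 to 0.22 for H2-DMb1 and -0.71 to 0.39 for Cd74. The cause was not tested. For Ciita, leaving out each library in turn was added after the data had been seen. The difference between the 2X groups was -0.61 without 2X cytokine replicate 1 and -1.22 to -0.93 without any other library, and that between the 1X groups was 0.21 without 1X PBS replicate 2 and -0.38 to 0 without any other. With 3 counts at 0.543 to 1.60 CPM before TMM scaling, Ciita and the class II genes outside the members were near the limit of detection.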
